A study of Sus scrofa with 32 samples.

Results

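Meiotic chromosome and recombination genes, 40 in the list used, were followed in testis RNA of 32 male pigs. Of these 40 genes, 33 had an Ensembl pig identifier under their symbol and at least 10 counts in total, out of 25322 gene identifiers in the count tables, of which 11804 carried a symbol. The 33 were divided by known role into 8 synaptonemal complex genes, 5 cohesin genes, 16 recombination genes and 4 genes kept apart as regulators and other genes. No identifier carried the symbol TEX12, RAD21L1, SMC1B, PRDM9, MSH5, RNF212 or TEX15, and these 7 genes were not analysed here. Total counts over all pigs ran from 158 for OVOL1 to 87724 for SYCP3. OVOL1, with no count in 4 pigs, was the 1 gene of the 33 left out of the tests by the filter on low counts, so that 32 were tested.

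The pigs were Danish crosses of Duroc with Landrace and Yorkshire, slaughtered near 100 kg. The labels sort them by AS group, which stands for androstenone and skatole, and by diet, either a control feed or one with 15% chicory over the last 3 days. High AS comprised 7 chicory-fed and 10 control-fed pigs, Low AS comprised 7 chicory-fed and 7 control-fed pigs, and 1 chicory-fed pig had no AS group. Androstenone, a steroid of the boar testis that taints meat, was 0.67 to 7.77 mg/kg in High AS pigs and 0 to 1.07 mg/kg in Low AS pigs, so the groups overlapped. The pigs came from 14 sows, and 7 sows had offspring in both groups.

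Meiosis in the testis begins when spermatogonia become spermatocytes. In prophase, SPO11 cuts the DNA, the ends are resected and paired with the homologous chromosome by recombinases, and some of these joints mature into crossovers. Over the same period the chromosomes are organised on cohesin-based axes and zipped together by the synaptonemal complex. PRM1, the protamine that compacts DNA in elongating spermatids, is made after meiosis and served here as a later germ cell yardstick. In bulk testis RNA, fewer cells of a type and less RNA per cell cannot be told apart.

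Libraries held 1855174 to 20349500 counts in genes, with a median of 4061083. The library names divide them into 8 numbered libraries, at 10585625 to 20349500 counts, of which 6 came from High AS pigs and 2 from Low AS pigs, and 24 plain libraries at 1855174 to 5993637 counts. This division is called library set here and was a term in each model given below unless a single set was fitted or its absence is stated. A sequencing lane is also recorded, lane 7 for 4 of the numbered libraries, all from High AS pigs, and lane 6 for all others. Lane was not a term in any model, and its part in the values, above all within the numbered set, was not tested. Levels are in CPM, a gene's counts scaled to the TMM-corrected library size, not divided by gene length, so levels are compared between pigs and not between genes. Summed markers of spermatocytes, round spermatids and elongating spermatids were above 0 in every library, as were those of Sertoli and Leydig cells, and macrophage markers summed to 0 to 4.01 CPM. The shallowest library, that of the Low AS chicory pig with replicate number 1, stood apart from the rest in its PRM1 level. For named genes whose values leaned on it most, the value without it is given as well. Folds and slopes of cell type markers are given only with it.

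**Figure D1:**
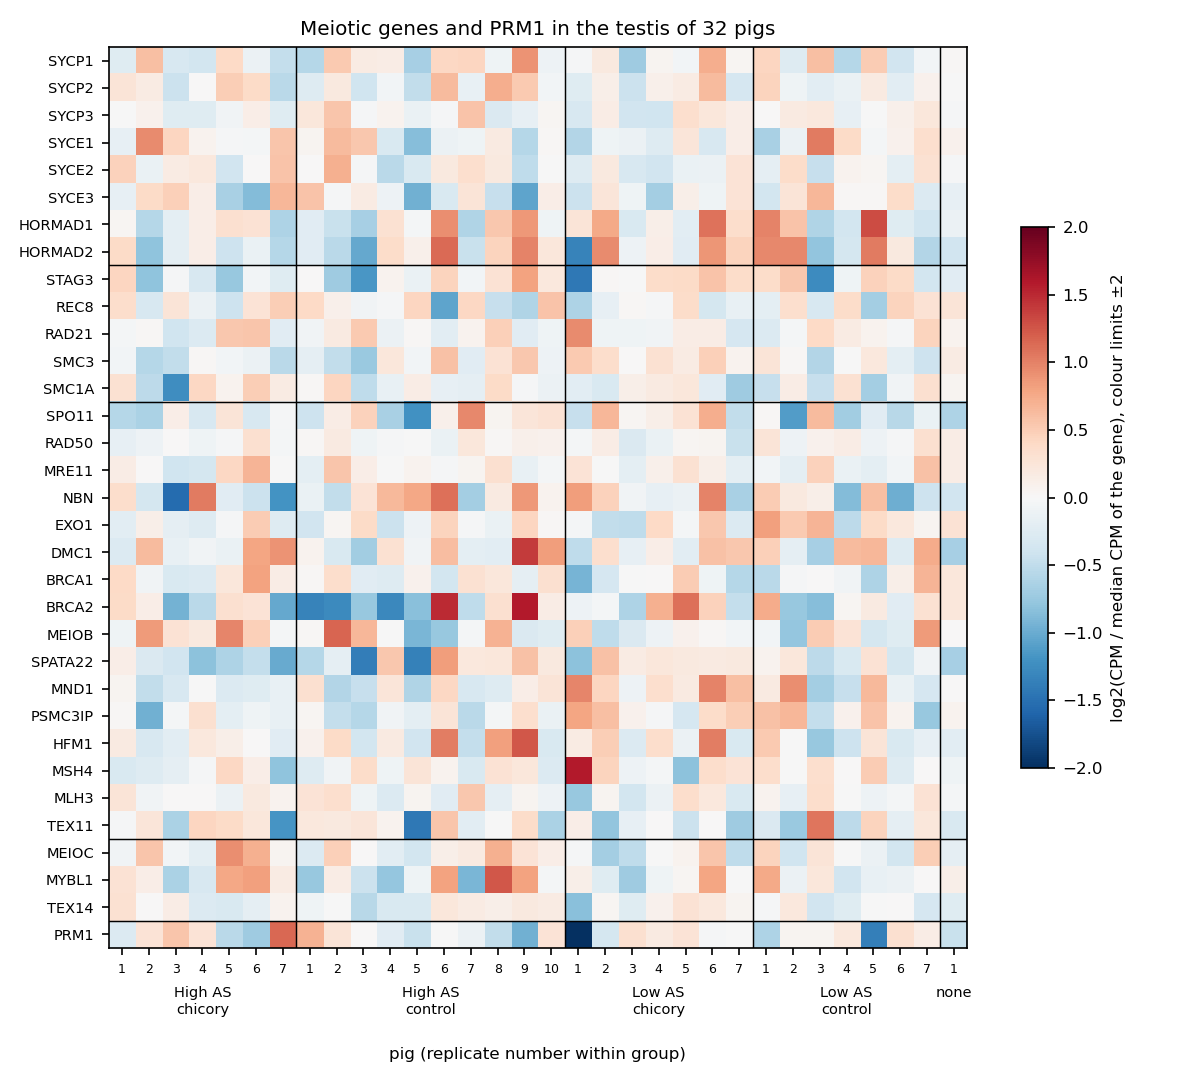
Level of 32 members and PRM1 (rows, grouped by role and separated by lines) in each of 32 pigs (columns), as log2 of CPM over the gene's median CPM; OVOL1 is not drawn. Red is above and blue below the gene's median, colours stop at plus and minus 2, and the column "none" is the pig with no AS group. The PRM1 row holds the darkest cell, in Low AS chicory pig 1 (659.6 CPM), while the RAD50 row is the palest.

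Meiotic genes varied less across pigs than PRM1. The standard deviation (SD) of log2 CPM over 32 pigs had a median of 0.43 over the 33 members, from 0.16 for RAD50 to 0.75 for OVOL1, against 0.87 for PRM1 and a median of 0.49 over all 13025 genes tested. All 33 members had a smaller SD than PRM1, and so did 92.5% of all genes tested. Against the median of all genes, 21 of the 33 members had the smaller SD. In the 8 numbered libraries alone the members' median SD was 0.342 against 0.343 over all genes, with 17 of 33 members under the median of all genes. These SDs are descriptions without a test, because all genes were read from the same libraries.

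Much of the PRM1 value came from a single pig. PRM1 was at 659.6 CPM in Low AS chicory pig 1, against 4351 to 24920 CPM and a median of 11350 CPM in the other 31 pigs. Without that pig the SD of PRM1 was 0.50 and the median SD of the members 0.42, and 21 of 33 members remained below PRM1 instead of 33. The 12 then above PRM1 were HORMAD1, HORMAD2, STAG3, SPO11, NBN, DMC1, BRCA2, MEIOB, SPATA22, TEX11, MYBL1 and OVOL1. Within the 8 numbered libraries, which do not hold that pig, PRM1 had an SD of 0.39, the members a median of 0.34, and again 21 of 33 members lay below PRM1. In the 24 plain libraries without that pig, 26 of 33 did, with 0.54 for PRM1 and a median of 0.38 for the members. The median SD over all genes tested was below PRM1 in these settings too. It was 0.45 without that pig, 0.34 in the numbered libraries and 0.42 in the plain libraries without that pig. The share of all genes below PRM1 was not counted there, so these counts are not particular to meiotic genes. On the linear scale the coefficient of variation of CPM was 11.2% to 69.3% over the members, with a median of 30.1%, and 39.1% for PRM1.

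**Figure D2:**
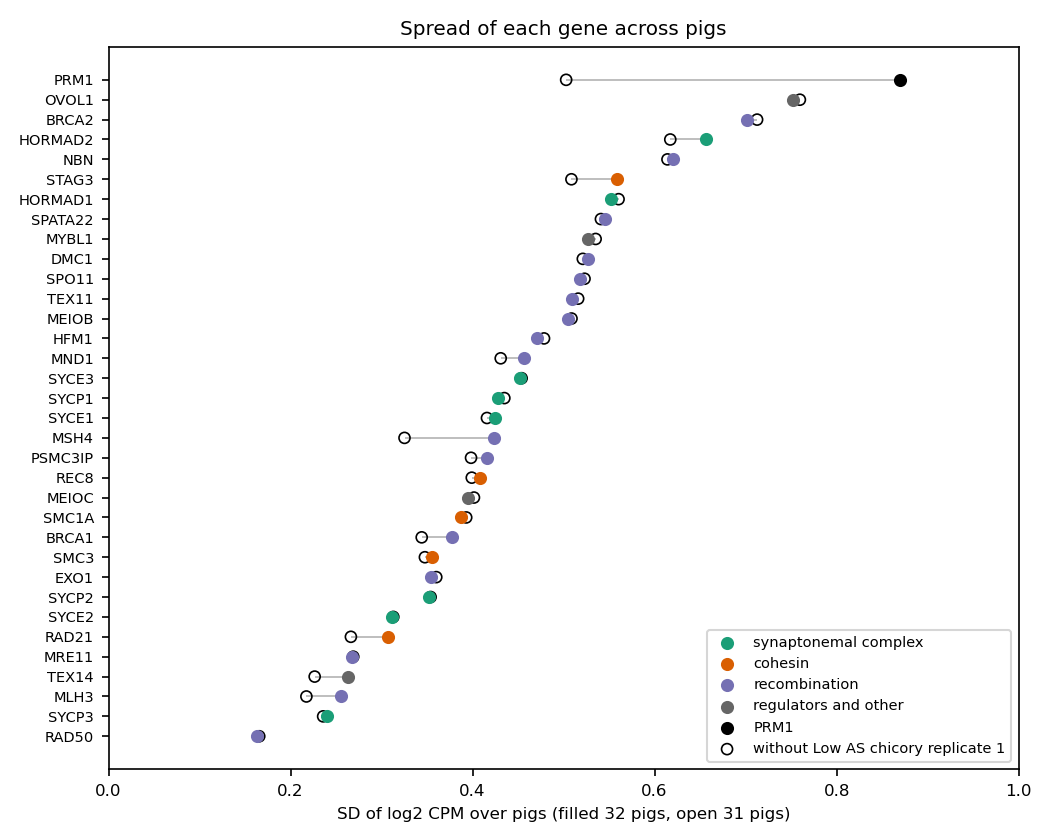
SD of log2 CPM over pigs (horizontal axis) for 33 members and PRM1, coloured by role. Filled points use 32 pigs and open points leave out Low AS chicory pig 1; PRM1 moves from 0.87 to 0.50, while the members' median moves from 0.43 to 0.42.

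Among synaptonemal complex genes the median SD was 0.43 and the steadiest member was SYCP3. SYCP3, a protein of the lateral elements, lay at 324.9 to 632.2 CPM with a median of 426.9 CPM and an SD of 0.24, the second smallest of the 33. Its axis partner SYCP2 ranged over 148.6 to 359.9 CPM (SD 0.35), and SYCP1, the transverse filament that joins the lateral elements, over 63.9 to 195.9 CPM (SD 0.43). Of the central element proteins, SYCE2 was the steadiest at 20.4 to 48.8 CPM (SD 0.31), SYCE1 spanned 121.2 to 446.8 CPM (SD 0.43) and SYCE3 spanned 36.1 to 119.0 CPM (SD 0.45). The 2 HORMA domain proteins, which mark chromosome axes that have not yet synapsed, were the most variable of the class. HORMAD1 ranged over 58.8 to 228.4 CPM (SD 0.55) and HORMAD2 over 17.8 to 99.4 CPM (SD 0.66).

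Cohesin genes had a median SD of 0.39. The spread was smallest for RAD21, the kleisin of mitotic and meiotic cohesin, at 57.5 to 146.4 CPM (SD 0.31). SMC3, a core subunit of every cohesin ring, lay at 92.1 to 230.9 CPM (SD 0.36), and SMC1A, its partner in somatic cohesin, at 9.12 to 30.4 CPM (SD 0.39). REC8, the meiosis-specific kleisin, ranged over 56.6 to 174.1 CPM (SD 0.41). STAG3, the meiosis-specific STAG subunit, ranged over 109.3 to 515.5 CPM and had the largest SD of the class, 0.56. Without Low AS chicory pig 1 the SD of STAG3 was 0.51.

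Recombination genes had a median SD of 0.46 and held both ends of the tested members. The break-processing complex of MRE11, RAD50 and NBN, which cells also use outside meiosis, was uneven. RAD50 stayed within 30.4 to 51.9 CPM (SD 0.16) and MRE11, its nuclease, within 29.6 to 62.5 CPM (SD 0.27). NBN, the third subunit, ranged over 1.37 to 8.47 CPM (SD 0.62), but its counts were as low as 3 in a library, so counting error enters that value. BRCA2, the loader of recombinases onto single-stranded DNA, spanned 1.39 to 10.6 CPM (SD 0.70), with 4 counts in the poorest library. Among the meiosis-specific genes of the class, SPO11 ranged over 16.62 to 75.04 CPM (SD 0.52), and the strand exchange protein DMC1 over 28.8 to 123.6 CPM (SD 0.53).

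Of the crossover genes, MLH3, a subunit of the crossover-resolving nuclease, was the steadiest at 56.8 to 139.6 CPM (SD 0.26). MSH4, which stabilises crossover intermediates, lay at 12.8 to 68.5 CPM (SD 0.42), and the helicase HFM1 at 15.4 to 61.2 CPM (SD 0.47). The top MSH4 value was that of Low AS chicory pig 1, without which the SD of MSH4 was 0.33. TEX11, an X-linked crossover factor, ranged over 3.66 to 20.7 CPM (SD 0.51). MEIOB and SPATA22, partners that bind single-stranded DNA, had SDs of 0.51 and 0.55. MEIOB was the member for which library set mattered most: once each set was centred on its own mean, its SD was 0.32. MND1 and PSMC3IP, which form the complex that helps DMC1 pair homologues, had SDs of 0.46 and 0.42, the nuclease EXO1 had 0.35 and BRCA1 had 0.38.

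In the remaining class, TEX14, needed for the bridges between germ cells, was steady at 81.6 to 179.8 CPM (SD 0.26). MEIOC, which keeps spermatocytes in meiotic prophase, lay at 135.7 to 413.9 CPM (SD 0.40). MYBL1, a transcription factor of spermatocytes, ranged over 8.25 to 36.9 CPM (SD 0.53). OVOL1, a transcription factor of early spermatocytes in mice, ranged over 0 to 2.17 CPM, and its SD of 0.75 comes from at most 19 counts per library.

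In the pig with the low PRM1, meiotic transcripts lay on both sides of the levels of the other pigs. In Low AS chicory pig 1, 13 of 33 members were above and 20 below the median of the other 31 pigs, and the median log2 difference was -0.06. There, 5 members had their lowest value of all pigs and 3 their highest. STAG3 was at 109.3 CPM against 122.7 to 515.5 CPM elsewhere, HORMAD2 at 17.8 CPM, BRCA1 at 41.8 CPM, MLH3 at 56.8 CPM and TEX14 at 81.6 CPM, all at the bottom. At the top, MSH4 was at 68.5 CPM against 12.8 to 32.4 CPM elsewhere, RAD21 at 146.4 CPM against 57.5 to 111.8 CPM, and PSMC3IP at 32.4 CPM against 9.58 to 29.6 CPM. MND1 at 30.5 CPM was the second highest of the 32, and SMC3 at 220.5 CPM the third highest. Of the 8 synaptonemal complex genes, 7 were below the median of the other pigs, SYCP3 with 340.1 CPM among them.

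Other cell type markers moved in that pig too. Summed over 7 spermatogonial genes the level was 148.2 CPM, the highest of all pigs, whose median was 31.8 CPM. KIT at 66.15 CPM, UCHL1 at 50.2 CPM, RET at 20.17 CPM and NANOS3 at 4.222 CPM were the highest of all pigs. GFRA1, ZBTB16 and DMRT1 were inside the range of the other pigs. Over 5 Sertoli genes the sum was 652.1 CPM, again the highest, against a median of 222.0 CPM. There CLDN11 at 441.5 CPM and SOX9 at 135.6 CPM were the highest, while FSHR, GATA4 and WT1 were inside the range of the other pigs. The 7 elongating spermatid genes summed to 2293 CPM, the lowest, against a median of 20069 CPM, and the 5 round spermatid genes to 855.7 CPM, the lowest, against a median of 2240 CPM. The pair LDHC and TDRD1, spermatocyte genes outside the member list, summed to 318.5 CPM, also the lowest, against a median of 518.1 CPM. Of this pair only LDHC was low, at 145.4 CPM, the lowest of all pigs. TDRD1, at 173.1 CPM, was inside the range of 100.1 to 315.6 CPM in the other pigs. The part of these cell types in the meiotic gene values was not tested.

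**Figure D3:**
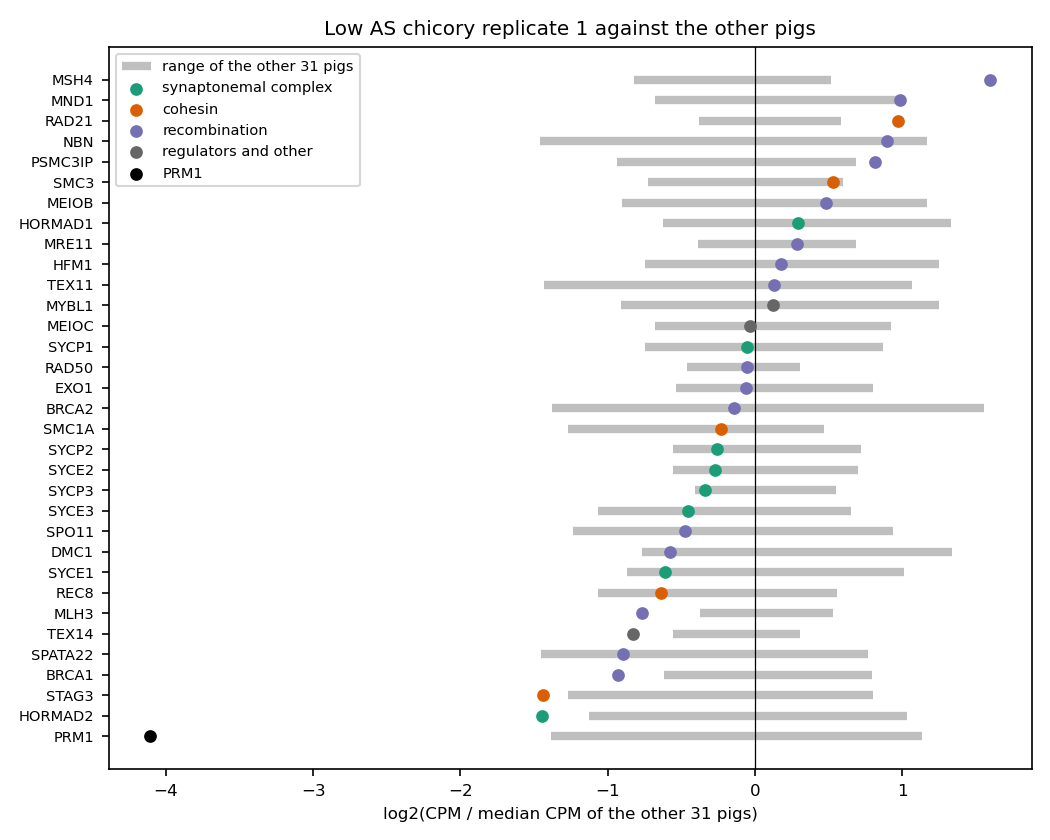
Low AS chicory pig 1 (points, coloured by role) on a log2 scale relative to the median CPM of the other 31 pigs, whose range is the grey bar; OVOL1 is not drawn. PRM1, at 659.6 CPM, lies far left of its bar, whereas most members lie inside theirs, MSH4 lies to the right of its bar and STAG3 to the left.

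Of 8 pairs of protein partners, only HORMAD1 with HORMAD2 had correlated transcript levels in both library sets. The pairs, chosen after levels had been seen, were correlated on log2 CPM within each library set, which gave 16 tests with Benjamini-Hochberg adjustment over them. Genes that are not partners were not correlated, so the p-values cannot tell whether partners go together more than other germ cell genes. HORMAD1 and HORMAD2 were correlated both in the 24 plain libraries (r = 0.79, permutation p = 1e-05, the smallest that 100000 random orders can give, adjusted p = 0.00016; rho = 0.82, adjusted p = 0.00032) and in the 8 numbered ones (r = 0.90, exact permutation p = 0.000198, adjusted p = 0.00106; rho = 0.93, adjusted p = 0.00893). Without the 2 pigs farthest from the median of HORMAD1, r was 0.76 and 0.94 in these sets. The pigs with the most HORMAD1 were Low AS control 5 at 228.4 CPM, Low AS chicory 6 at 197.0 CPM and Low AS control 1 at 183.9 CPM. HORMAD2 was among its 5 highest values in 2 of these pigs, at 92.9 CPM in Low AS control 5 and 87.4 CPM in Low AS control 1.

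MND1 and PSMC3IP were correlated in the plain libraries (r = 0.70, permutation p = 0.00012, adjusted p = 0.00096; rho = 0.61, adjusted p = 0.00893), and r was 0.61 without the 2 farthest pigs. In the 8 numbered libraries their r of 0.53 did not pass (exact permutation p = 0.181, adjusted p = 0.414; rho = 0.60, adjusted p = 0.235). RAD50 and MRE11 passed only in the 8 numbered libraries (r = 0.91, exact permutation p = 0.00238, adjusted p = 0.00952; rho = 0.95, adjusted p = 0.00893), against r = 0.21 in the plain libraries (permutation p = 0.321, adjusted p = 0.518; rho = 0.16, adjusted p = 0.558). The other 5 pairs, SYCP2 with SYCP3, STAG3 with REC8, SMC3 with SMC1A, RAD50 with NBN and MEIOB with SPATA22, passed in neither set, with r from -0.55 to 0.66. MEIOB and SPATA22 had r = -0.26 in the plain libraries (permutation p = 0.216, adjusted p = 0.431; rho = -0.48, adjusted p = 0.0647). Without the 2 farthest pigs, r of these 5 pairs ran from -0.69 to 0.78 and was not tested. The lowest was MEIOB with SPATA22 in the plain libraries and the highest SMC3 with SMC1A in the numbered ones.

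SYCP3, REC8 and DMC1 were also set against PRM1 within each library set, in 6 further tests. REC8 followed PRM1 in the plain libraries (r = 0.54, permutation p = 0.00759, adjusted p = 0.0455; rho = 0.57, adjusted p = 0.0269), and r was 0.43 without Low AS chicory pig 1 and Low AS control pig 5, the 2 pigs farthest from the PRM1 median. In the 8 numbered libraries REC8 had r = 0.11 (exact permutation p = 0.784, adjusted p = 0.784; rho = 0.14, adjusted p = 0.995). SYCP3 had r = 0.19 in the plain libraries (permutation p = 0.378, adjusted p = 0.729) and 0.58 in the numbered ones (exact permutation p = 0.141, adjusted p = 0.423). DMC1 had 0.16 (permutation p = 0.486, adjusted p = 0.729) and -0.12 (exact permutation p = 0.735, adjusted p = 0.784). The rank correlations of these genes did not pass either, with rho from -0.17 to 0.52. Without the 2 pigs farthest from the PRM1 median, r was -0.13 for SYCP3 and -0.10 for DMC1 in the plain libraries. In the numbered ones, without High AS chicory 5 and 6, r was 0.80 for SYCP3, 0.545 for REC8 and 0.33 for DMC1. These values were not tested.

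Single pigs combined several extremes. High AS control 9 had the highest level of all pigs for 5 members, among them DMC1 at 123.6 CPM, HFM1 at 61.2 CPM, BRCA2 at 10.6 CPM and STAG3 at 515.5 CPM. In the same pig SYCE3 was at 36.1 CPM, the lowest of all pigs, and REC8 at 77.0 CPM was the fourth lowest. High AS control 6 had the highest HORMAD2 at 99.4 CPM, SMC3 at 230.9 CPM and NBN at 8.47 CPM, and the lowest REC8 at 56.6 CPM. By the mean log2 CPM over members, the lowest pig was High AS control 5 at 5.12 and the highest Low AS chicory 6 at 5.75. In High AS control 5, 24 of 33 members were below the median of the other pigs, and in Low AS chicory 6, 26 of 33 were above it.

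Between AS groups no meiotic gene passed the test. High AS was compared with Low AS in 17 and 14 pigs with edgeR's quasi-likelihood test, with diet and library set as terms. It called 0 of 32 members at an adjusted p under 0.05, where 0 of 13025 genes, or 0%, were called. At an unadjusted p under 0.05 there were 0 members and 300 genes, or 2.3%. DESeq2 and limma called 0 members as well. The log2 fold was positive for 14 members and negative for 18, with a median of -0.02 over the members and 0.01 over all genes tested. By class, 2 of 8 synaptonemal complex genes, 2 of 5 cohesin genes, 7 of 16 recombination genes and 3 of 3 tested regulators were on the positive side.

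The estimates farthest from 0 relative to their error were negative and belonged to recombination genes. Log2 folds between AS groups are adjusted for diet and library set, whereas the CPM printed beside them are not. MND1 was at 10.1, 13.1 and 20.7 CPM (lowest, median and highest) in High AS pigs and at 9.64, 18.5 and 30.9 CPM in Low AS pigs. Its log2 fold was -0.28 (SE 0.14, unadjusted p = 0.0594, edgeR adjusted p = 0.988). MSH4 was at 13.0, 21.6 and 30.2 CPM in High AS pigs and at 12.8, 25.2 and 68.5 CPM in Low AS pigs. Its log2 fold was -0.32 (SE 0.17, edgeR adjusted p = 0.988). The top value of MSH4 was that of Low AS chicory pig 1, and without that pig its log2 fold was -0.17 (SE 0.12). PSMC3IP was at 9.58, 17.7 and 23.6 CPM in High AS pigs and at 11.1, 22.1 and 32.4 CPM in Low AS pigs, with a log2 fold of -0.22 (SE 0.13). Its top value also came from Low AS chicory pig 1, without which its log2 fold was -0.175. For all 3 genes the groups overlapped.

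These 3 log2 folds differed in sign between library sets, and whether they differed beyond their error was not tested. The numbered libraries came from 6 High AS and 2 Low AS pigs. In the plain libraries alone, which hold Low AS chicory pig 1, the log2 folds were -0.41 for MND1 (SE 0.18), -0.43 for MSH4 (SE 0.22) and -0.37 for PSMC3IP (SE 0.15). In the 8 numbered libraries they were 0.06 (SE 0.29), 0.03 (SE 0.28) and 0.27 (SE 0.33), on the other side of 0. The 4 spermatogonial markers tested had log2 folds of -0.66 to -0.30, all negative, and the 7 elongating spermatid markers 0.17 to 0.33, all positive. The 4 Leydig cell markers had 0.42 to 0.64, all positive, with CYP17A1, a steroid synthesis enzyme, at 0.61 (SE 0.29, unadjusted p = 0.0424, edgeR adjusted p = 0.988), and the 5 Sertoli markers had -0.23 to 0.03. None of these markers passed the test after adjustment. Their part in the meiotic gene values was not tested. Low AS chicory pig 1 had the most KIT (66.15 CPM) and UCHL1 (50.2 CPM) and the least TNP1 (660.1 CPM) of all pigs. Marker folds without that pig are not given.

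On the positive side, SYCE2 was at 20.4, 30.1 and 48.8 CPM in High AS pigs and at 21.6, 27.3 and 38.3 CPM in Low AS pigs. Its log2 fold was 0.14 (SE 0.13). TEX14 had a log2 fold of 0.10 (SE 0.10), or 0.06 without Low AS chicory pig 1, and BRCA1 of 0.12 (SE 0.13). SYCP3 averaged 437.6 ± 83.5 CPM in High AS pigs and 438.3 ± 69.9 CPM in Low AS pigs (SD, n = 17 and 14). Its log2 fold was -0.03 (SE 0.10). REC8 averaged 123.3 ± 34.8 CPM in High AS pigs and 116.5 ± 29.0 CPM in Low AS pigs, with a log2 fold of 0.12 (SE 0.15). DMC1 averaged 57.9 ± 24.8 CPM in High AS pigs and 54.5 ± 16.9 CPM in Low AS pigs, with a log2 fold of 0.13 (SE 0.18). Without High AS control pig 9 the fold of DMC1 was 0.01 (SE 0.17), and in the 8 numbered libraries it was -0.60 (SE 0.41), against 0.12 (SE 0.20) in the plain ones. PRM1 averaged 11917 ± 4781 CPM in High AS pigs and 10506 ± 3945 CPM in Low AS pigs, with a log2 fold of 0.22 (SE 0.25). Group means of these genes differed by less than the SD within either group.

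The 95% interval of the log2 fold held 0 for all 32 members and lay within plus and minus 0.5 for 24 of them and within plus and minus 1 for all 32. RAD50 had the narrowest, -0.17 to 0.15, and MSH4 the one reaching farthest, -0.67 to 0.02. In all 32 members the ranges of High and Low AS pigs overlapped. Of 71 other genes of the pathway listed beside the members, 47 had an identifier and 46 were tested, of which 0 passed, 18 with a positive and 28 with a negative estimate. The smallest p among them belonged to MDC1, a scaffold of the DNA damage response, with a log2 fold of 0.29 (SE 0.15), and SFR1, a helper of strand exchange, with -0.33 (SE 0.18). Without Low AS chicory pig 1, where SFR1 was at 52.5 CPM, its log2 fold was -0.18 (SE 0.14), and without High AS control pig 9 that of MDC1 was 0.19.

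**Figure D4:**
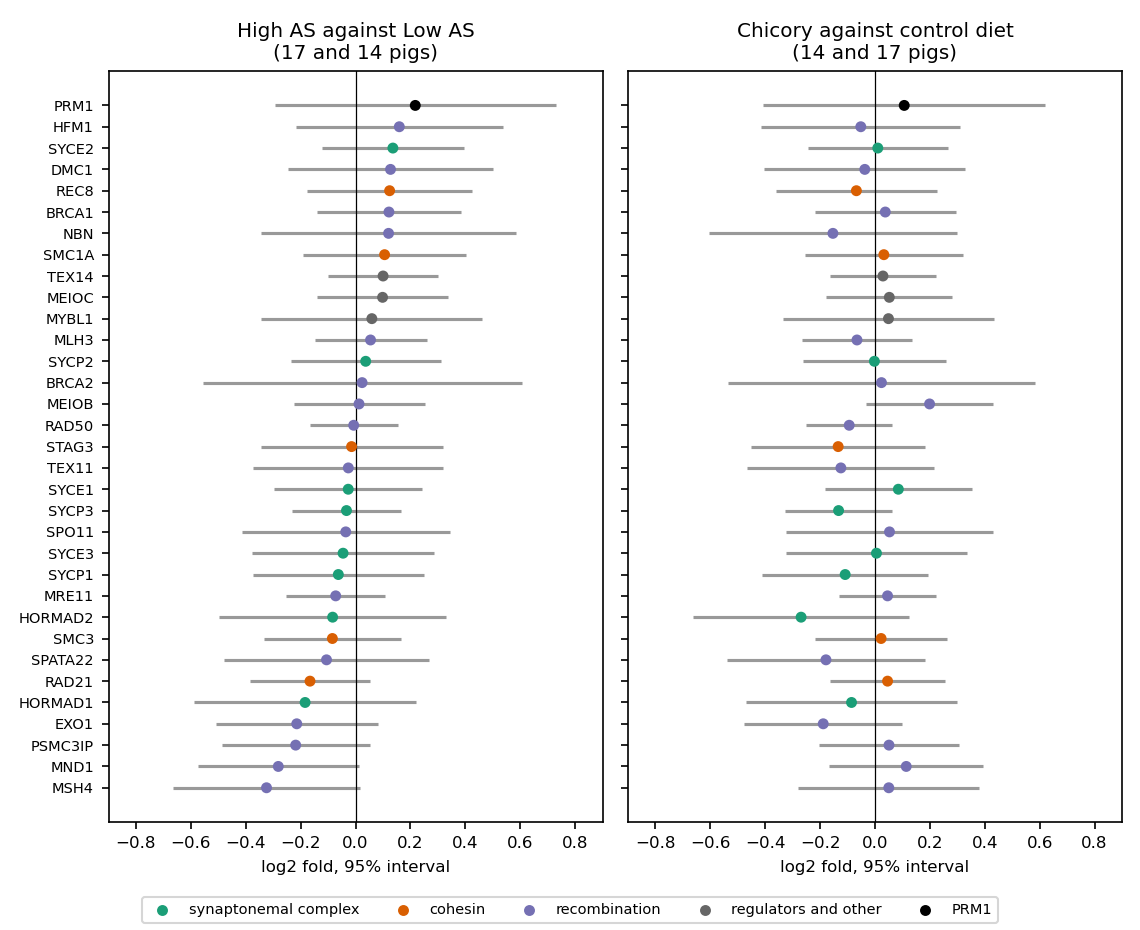
Log2 fold (points, coloured by role) with 95% interval (grey lines) from edgeR's quasi-likelihood test for 32 members and PRM1; left, High AS against Low AS in 17 and 14 pigs, and right, chicory against control diet in 14 and 17 pigs. The intervals of all 32 members hold 0 in both panels, with MSH4 at -0.32 lowest on the left and MEIOB at 0.20 highest on the right.

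Against the androstenone concentration itself, 3 members leaned downward without passing the test over all genes. Each gene was fitted on log2 of androstenone with 0.5 mg/kg added, and slopes give the log2 difference in expression for each doubling of this value. edgeR called 0 of 32 members, against 3 of 13199 genes, or 0.0227%. At an unadjusted p under 0.05 there were 3 members, or 9.38%, against 668 genes, or 5.06%. DESeq2 and limma also called 0 members. Slopes were positive for 9 and negative for 23 members, with a median of -0.04 over the members and -0.01 over all genes tested.

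The 3 members were MND1, PSMC3IP and HORMAD1. MND1 had a slope of -0.16 (SE 0.07, unadjusted p = 0.0212, edgeR adjusted p = 0.852), PSMC3IP of -0.15 (SE 0.06, unadjusted p = 0.0229) and HORMAD1 of -0.21 (SE 0.09, unadjusted p = 0.0259). In the 4 pigs whose androstenone is listed at 0, MND1 was at 17.5, 23.4, 29.3 and 30.9 CPM, PSMC3IP at 24.2, 26.3, 28.1 and 29.6 CPM, and HORMAD1 at 119.1, 138.0, 183.9 and 197.0 CPM. In the 3 pigs with the most androstenone, at 4.74, 5.9 and 7.77 mg/kg, MND1 was at 10.3, 12.3 and 18.4 CPM, PSMC3IP at 13.5, 18.3 and 17.1 CPM, and HORMAD1 at 68.0, 81.2 and 87.7 CPM. PSMC3IP and HORMAD1 were thus higher in each of the 4 pigs listed at 0 than in each of these 3, while MND1 overlapped. The same pigs gave the slopes by which the genes were picked, so these levels are no further test. How many of all genes separate in this way was not counted. These CPM are also not adjusted for library set. The 4 pigs listed at 0 were plain libraries, and the pig at 4.74 mg/kg was a numbered one. In numbered and plain libraries the mean was 14.1 and 21.5 CPM for PSMC3IP, 85.7 and 114.5 CPM for HORMAD1, and 11.7 and 18.4 CPM for MND1. Low AS control 2 and Low AS chicory 7, both listed at 0, came from the same sow.

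Within library sets the slopes kept their sign. In the plain libraries they were -0.19 for MND1 (SE 0.08), -0.16 for PSMC3IP (SE 0.07) and -0.22 for HORMAD1 (SE 0.10). In the numbered libraries they were -0.05 (SE 0.13), -0.10 (SE 0.16) and -0.19 (SE 0.19). With the sow as a fixed block, which compares offspring of the same sow, they were -0.07 for MND1 (SE 0.12), 0.001 for PSMC3IP (SE 0.11) and 0.02 for HORMAD1 (SE 0.16). The 4 spermatogonial markers had slopes of -0.35 to -0.17 and the 7 elongating spermatid markers of 0.08 to 0.22. The 4 Leydig markers had slopes of 0.21 to 0.30, all positive, and the 5 Sertoli markers of -0.27 to -0.01, all negative, with CLDN11 at -0.27 (SE 0.13, unadjusted p = 0.0425, edgeR adjusted p = 0.852). The part of these cell types in the slopes of the 3 members was not tested. The marker slopes include Low AS chicory pig 1 and are not given without it.

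**Figure D5:**
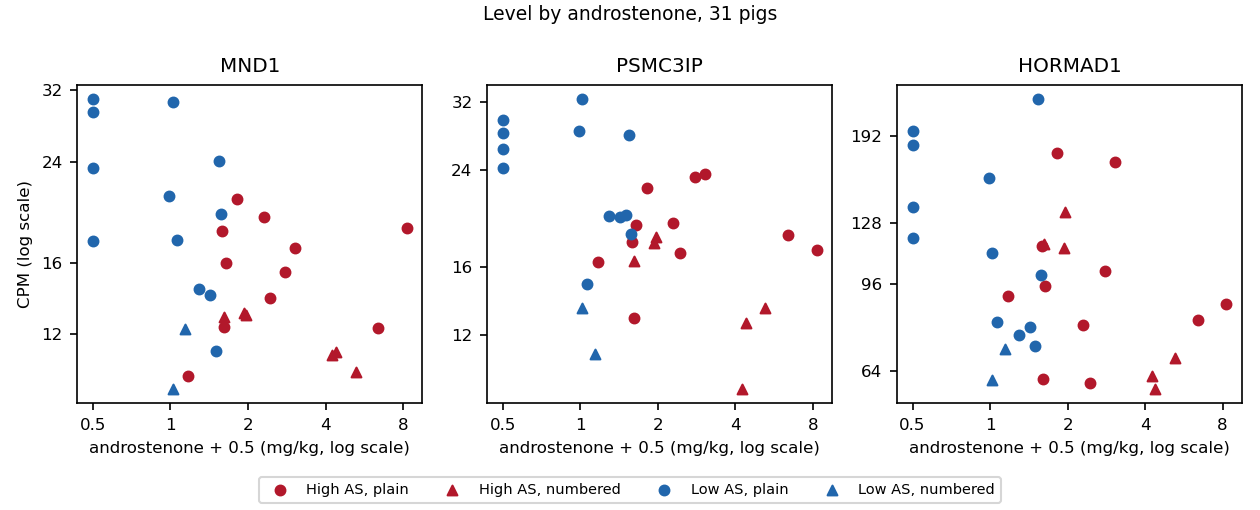
CPM (vertical, log scale) of MND1, PSMC3IP and HORMAD1 by androstenone plus 0.5 mg/kg (horizontal, log scale) in 31 pigs; red is High AS and blue Low AS, circles are plain and triangles numbered libraries. The 4 pigs listed at 0 mg/kg stand at the left edge, with MND1 at 17.5 to 30.9 CPM, and the pig with 7.77 mg/kg stands at the right with 18.4 CPM.

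The members with the smallest p among positive slopes were SYCE1 at 0.10 (SE 0.06), MEIOB at 0.07 (SE 0.06) and REC8 at 0.08 (SE 0.07). SYCP3 had a slope of -0.05 (SE 0.05), DMC1 of 0.06 (SE 0.09) and PRM1 of 0.18 (SE 0.12). By class, 5 of 8 synaptonemal complex genes, 4 of 5 cohesin genes, 12 of 16 recombination genes and 2 of 3 tested regulators had a negative slope. Of the 46 other pathway genes, 0 passed and 30 had a negative slope. Among those, CHEK1, a checkpoint kinase, had a slope of -0.20 (SE 0.09).

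Between diets no meiotic gene passed the test. In 14 chicory and 17 control pigs, edgeR's quasi-likelihood test called 0 of 32 members, against 1 of 13025 genes, or 0.00768%. At an unadjusted p under 0.05 there were 0 members, against 114 genes, or 0.875%, and DESeq2 and limma called 0 members. There were 17 positive and 15 negative estimates, with a median of 0.01 over the members and 0.01 over all genes tested. The 95% interval held 0 for all 32 members and lay within plus and minus 0.5 for 28 and within plus and minus 1 for all 32.

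MEIOB had the smallest p. It was at 42.1, 62.1 and 118.3 CPM in chicory pigs and at 31.8, 58.3 and 134.1 CPM in control pigs, a log2 fold of 0.20 (SE 0.11, unadjusted p = 0.0911, edgeR adjusted p = 1). Without Low AS chicory pig 1 its log2 fold was 0.15. In the plain libraries its log2 fold was 0.27 (SE 0.14) and in the numbered ones -0.08 (SE 0.23). MND1, with a log2 fold of 0.11 (SE 0.14), and SYCE1, with 0.09 (SE 0.13), came next among the positive estimates. HORMAD2 was at 17.8, 41.6 and 87.1 CPM in chicory pigs and at 22.1, 51.9 and 99.4 CPM in control pigs, a log2 fold of -0.27 (SE 0.19). SYCP3 was at 324.9, 415.2 and 541.0 CPM in chicory pigs and at 349.2, 440.8 and 632.2 CPM in control pigs, a log2 fold of -0.13 (SE 0.10). EXO1, the nuclease that lengthens resected ends, had a log2 fold of -0.19 (SE 0.14). The diets overlapped for all 32 members.

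REC8 had a log2 fold of -0.07 (SE 0.14) for chicory and DMC1 of -0.04 (SE 0.18). In the 8 numbered libraries DMC1 stood at 0.87 (SE 0.37, unadjusted p = 0.0389, edgeR adjusted p = 1) and in the plain ones at -0.25 (SE 0.20). The only chicory pigs among the numbered libraries were High AS chicory 2, 5 and 6. PRM1 averaged 11784 ± 5484 CPM in chicory pigs and 10864 ± 3409 CPM in control pigs (SD, n = 14 and 17), a log2 fold of 0.11 (SE 0.25). The fold of PRM1 was 0.20 without Low AS chicory pig 1 and -0.01 without High AS chicory pig 7. Of the 46 other pathway genes 0 passed, with 23 positive and 23 negative. The smallest p there belonged to BLM, a helicase that dissolves recombination joints, at 0.19 (SE 0.12), and MEIKIN, a meiotic kinetochore protein, at -0.24 (SE 0.17). BLM was at 0.13 without Low AS chicory pig 1.

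Whether the AS difference depended on diet was tested as an interaction. edgeR called 0 of 32 members and 0 of 13025 genes, or 0%, with 2 members, or 6.25%, and 473 genes, or 3.63%, at an unadjusted p under 0.05. DESeq2 and limma called 0 members. SPO11 had the smallest p, with a log2 interaction of -0.81 (SE 0.36, unadjusted p = 0.0304, edgeR adjusted p = 0.951). On chicory, SPO11 was at 24.97, 30.9 and 46.48 CPM in High AS pigs and at 27.56, 42.02 and 63.97 CPM in Low AS pigs. On control feed it was at 16.62, 42.24 and 75.04 CPM in High AS pigs and at 17.77, 32.96 and 60.11 CPM in Low AS pigs. The medians thus stood in opposite order on the 2 diets, and the groups overlapped on both.

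SMC3 was the other, with a log2 interaction of -0.51 (SE 0.23, unadjusted p = 0.0341, edgeR adjusted p = 0.951). On chicory it was at 103.9, 142.2 and 155.5 CPM in High AS pigs and at 155.0, 190.4 and 220.5 CPM in Low AS pigs. On control feed it was at 92.1, 145.2 and 230.9 CPM in High AS pigs and at 102.6, 152.4 and 182.9 CPM in Low AS pigs. On chicory the highest High AS pig was just above the lowest Low AS pig. These CPM are not adjusted for library set. High AS chicory 2, 5 and 6 were numbered libraries, while no Low AS chicory pig was. SMC3 averaged 125.0 CPM in numbered and 166.5 CPM in plain libraries. How many of all genes come this near to separating was not counted. HFM1 had an interaction of -0.65 (SE 0.35), and on the positive side SYCE1 of 0.43 (SE 0.26), SYCE3 of 0.43 (SE 0.33) and REC8 of 0.35 (SE 0.30). SYCP3 had -0.15 (SE 0.20), DMC1 0.32 (SE 0.39) and PRM1 0.40 (SE 0.51). Without Low AS chicory pig 1 the interactions were 0.38 for SYCE1, 0.39 for SYCE3, 0.29 for REC8, 0.25 for DMC1 and 0.19 for PRM1. They were -0.88 for SPO11, -0.45 for SMC3, -0.66 for HFM1 and -0.19 for SYCP3. Intervals were wider here, with 24 of 32 members within plus and minus 1. Of the other pathway genes, SUN1, a nuclear envelope anchor of telomeres, had 0.84 (SE 0.37), which did not pass the threshold after adjustment. Without Low AS chicory pig 1, where SUN1 was at 7.975 CPM, its interaction was 0.70.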

How the data were processed

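Testis mRNA was read from 32 pigs with the TruSeq stranded mRNA kit, per the labels' protocols. The authors deposited 1 table per pig of whole-number read counts per Ensembl gene, not normalized. The submitters' processing notes name HTSeq 0.6.0, SAMtools 1.3.1, STAR, cutadapt 1.8.1 and Trimmomatic 0.33. Genome build, annotation and strand setting are not given in the sources used here. Reads of overlapping or antisense genes cannot be told apart. The 5 closing rows for reads of no gene were left out.

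edgeR 4.0.16 in R 4.3.3 (TMM, filterByExpr, quasi-likelihood F test, Benjamini-Hochberg over all genes, 0.05) was fitted to 31 pigs with AS group or log2 androstenone, diet and library set; the interaction was added in its own model. SE is the log2 fold over the square root of F. SDs use log2 CPM with prior count 2. Permutation tests of correlations were two-sided. DESeq2 1.42.0 and limma 3.58.1 were alternatives, beside other scalings, filters, covariates and left-out pigs. Replicate numbers follow accession order and pair no pigs. No 2 libraries of a group agreed within sampling noise (smallest chi-square per degree of freedom 7.24 of 108 pairs).

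Named were, per comparison, the 3 positive and 3 negative members of smallest p, always PRM1, SYCP3, REC8 and DMC1, and 2 other pathway genes, of which 1 is not reported here; for the spread, the 5 smallest and 5 largest SDs. Other members are named to account for all. Members and lists were chosen with earlier results of these data known. The fit was tested on simulated data.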

Additional observations from a re-analysis of the deposited data

Results flagged for a closer look

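Of 104 sets of values, each 1 gene in 1 AS by diet group, 4 held a pig far from the others of its group, where chance gives about 5%. In Low AS chicory pig 1, PRM1 was at 659.6 CPM against 8840 to 14030 CPM in the other 6 pigs of that group, and STAG3, the meiosis-specific cohesin subunit, at 109.3 CPM against 291.7 to 438.1 CPM. PSMC3IP, the partner of MND1, was at 9.581 CPM in High AS chicory pig 2 against 16.39 to 23.3 CPM in the other 6. RAD50, the steadiest member, was at 51.66 CPM in High AS chicory pig 6 against 36.97 to 41.96 CPM in the other 6. No explanation of these values was tested.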

How the results depend on the processing

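Members called numbered 0 in each of the 43 settings run for AS, 46 for androstenone, 44 for diet and 12 for the interaction. All 4 included DESeq2, limma, another scaling, other filters, no library set term, carcass weight, sow and the plain libraries alone. The numbered libraries alone and each pig left out in turn were run for AS, androstenone and diet; for the interaction, Low AS chicory replicate 1 was left out, alone and with High AS control replicate 3. The smallest adjusted p of a member under any of these was 0.807 for AS, 0.466 for androstenone, 0.65 for diet and 0.751 for the interaction. The members below PRM1 in SD numbered 21 in the numbered libraries and 21 without Low AS chicory replicate 1, where leaving out that pig changed PRM1 itself; the median SD of the members was 0.34 to 0.46 over all settings. Of 1638 recomputed values of named genes, 1606 kept their sign. With the sow as fixed block the log2 fold of SYCP3 for AS was 0.071, of SYCE1, PRM1 and DMC1 for chicory -0.056, -0.40 and 0.052, and the androstenone slopes of PSMC3IP, HORMAD1 and SYCP3 were 0.00096, 0.023 and 0.015. With the sow as random effect PRM1 for chicory was -0.13 and DMC1 0.0013. Limma gave -0.069 for PRM1 with chicory. With carcass weight (29 pigs) DMC1 was 0.0031 for chicory and -0.032 for the slope. In the numbered libraries alone, chosen after seeing the data, the AS folds were -0.25 for BRCA1, 0.064 for MND1, 0.025 for MSH4, 0.27 for PSMC3IP, -0.15 for PRM1, -0.15 for REC8 and -0.60 for DMC1. There the chicory folds were -0.078 for MEIOB, -0.086 for SYCE1, 0.12 for EXO1, -0.21 for PRM1, 0.0049 for REC8 and 0.87 for DMC1, and the slopes 0.069 for SYCP3 and -0.17 for DMC1. In the plain libraries the interaction of DMC1 was -0.16; it could not be fitted in the numbered ones, which hold no Low AS chicory pig. With each pig left out in turn, chicory folds ranged from -0.012 to 0.20 for PRM1 and from -0.12 to 0.056 for DMC1. The cause of these reversals was not tested. Replicate numbers are in accession order and pair no pigs, so the sow was the grouping used as a block. Depth limits BRCA2, NBN and OVOL1 most, at 4, 3 and 0 counts in their poorest library.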

Other observations

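The 1 chicory pig with no AS group was at 29.53 CPM for DMC1, the third lowest of the 32 pigs, and at 25.11 CPM for SPO11. SYCP3 was at 421.4 CPM there. Of the 33 members, 15 were above and 18 below the median of the other pigs.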
